A study of Arabidopsis thaliana with 14 samples.

Results

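The 4 genes described here, RD29A, RD29B, LTI30 and COR15B, are classical markers of cold and dehydration in Arabidopsis thaliana. They were chosen by name, as 4 of the 1114 genes in the authors' deposited table of RNA differences between the fen1 mutant and its control. That table holds only genes that passed the authors' test, so it is no finding that all 4 are in it. The deposited descriptions of these genes name a cold-regulated protein for COR15B, a dehydrin for LTI30 and responses to low temperature or drying for the other two, so the descriptions match the label.

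Both groups were whole seedlings of the C24 ecotype, 10 days old, grown on plates at 22 °C with 20 g/L sucrose. The labels name no cold, drought or hormone treatment. One group was a fen1 mutant, affected in the gene of flap endonuclease 1, an enzyme that trims DNA flaps in replication and repair, and the other was the transgenic wild type (TWT). The labels describe neither the transgene nor the mutant allele. There were 2 RNA libraries per genotype, and 3 histone marks were profiled by chromatin immunoprecipitation (ChIP) with 1 library per mark and genotype, of which the TWT peak lists were used. ChIP of fen1, of H3 and the inputs were not analysed here, and the marks therefore describe TWT alone.

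Cold and drying reach these genes by 2 routes. In cold, and in part in drought, transcription factors of the CBF and DREB families bind the dehydration-responsive element, which the RD29A promoter is known for. In drought and salt, the hormone abscisic acid (ABA), through its receptors, blocks PP2C phosphatases that hold SnRK2 kinases inactive, and the freed kinases activate ABF factors that bind ABA-responsive elements, on which the RD29B promoter depends. The proteins made are very hydrophilic and are thought to protect membranes and other proteins as water is lost.

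The table gives 1 FPKM value per genotype (fragments scaled to transcript length and library size, the unit read from its layout), so no spread between libraries can stand beside any level. Genes were called by the authors' test, at a q under 0.05. The p and q values imply 20132 genes tested, of which 684 were higher in fen1 (3.4%) and 430 lower (2.14%). Of the 4 markers, 2 were higher and 2 lower, and nothing is read from that count, since the table itself selects called genes. FEN1 was listed at 22.7 FPKM in fen1 and 14.5 FPKM in TWT, by the authors' deposited table, which does not check the genotype, as the kind of mutation is not given. Read depth is unknown, and seedling markers could not be checked, because genes not called have no value.

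RD29B, which encodes a hydrophilic protein induced by drying through ABA, stood at 4.66 FPKM in fen1 and 1.36 FPKM in TWT, by the authors' deposited table. It rose 3.41-fold there (log2 1.77, q = 0.00173), the largest change of the 4. The gene spans chromosome 5 from 21237056 to 21239529 on the plus strand (AT5G52300, TAIR10). It was the lowest of the 4 markers in both genotypes, and only 10.3% of listed genes were below it in TWT.

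RD29A (AT5G52310, chromosome 5, 21240849 to 21243613, plus strand, TAIR10) encodes a related hydrophilic protein and is the standard reporter gene of the cold pathway. It had 6.81 FPKM in fen1, against 13.6 FPKM in TWT, by the authors' deposited table. Its log2 change in that table was −0.998 (q = 0.00173), just short of 2-fold. Whether a fall means fewer cells with the transcript or less of it per cell cannot be told apart in whole seedlings.

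LTI30 (AT3G50970, also XERO2, chromosome 3, 18940777 to 18941554, plus strand, TAIR10) encodes a dehydrin, a protein class that binds membranes in dry or cold cells. The most abundant marker in both genotypes, it stood at 61.9 FPKM in fen1 and 30.2 FPKM in TWT, by the authors' deposited table. The gene rose 2.05-fold there (log2 1.04, q = 0.00173), and its gain of 31.7 FPKM was larger than the changes of the other 3 markers in FPKM.

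COR15B (AT2G42530, chromosome 2, 17709036 to 17709945, minus strand, TAIR10) encodes a small protein of the chloroplast stroma that helps to stabilise chloroplast membranes in freezing. It stood at 6.98 FPKM in fen1 and 13.1 FPKM in TWT, by the authors' deposited table. It fell by 0.91 on the log2 scale (q = 0.00830), the weakest call of the 4. Its close copy COR15A is the next annotated gene and was not listed. How the authors divided reads between such copies is not given, so the COR15B level is uncertain.

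The order of the 4 levels differed between the genotypes. In fen1 it ran LTI30, COR15B, RD29A, RD29B and in TWT it ran LTI30, RD29A, COR15B, RD29B. COR15B and RD29A lay close together in both, and without values per library their order is not established, nor is that of any other neighbours in level. Among listed genes of the same direction that have a fold change, RD29B ranked 123rd of 679 by size in the authors' deposited table and LTI30 303rd of 679. RD29A ranked 129th and COR15B 149th of the 425 lower genes there. The median log2 change in that table was 0.95 for all higher and −0.72 for all lower genes, and each of the 4 lay beyond the median of its direction, LTI30 by the least.

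**Figure D1:**
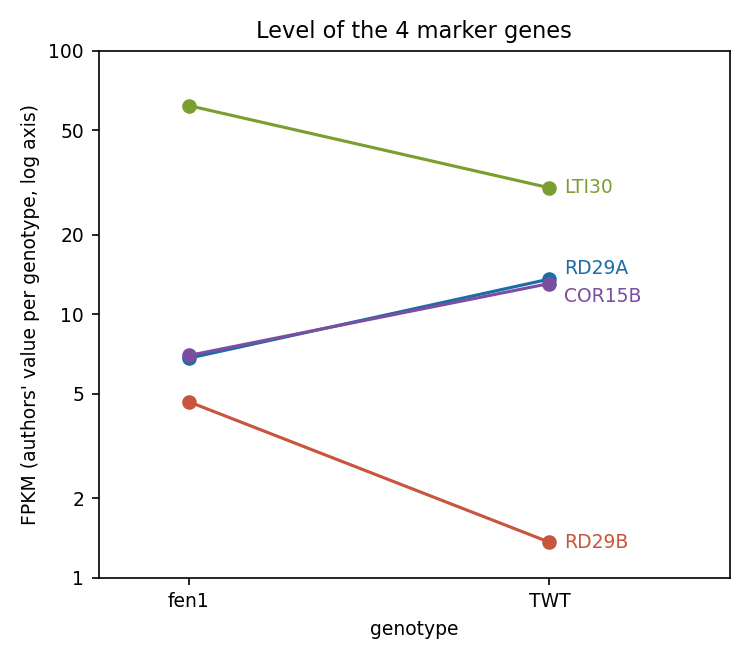
FPKM of the 4 marker genes (log axis) in fen1 and in TWT, 1 value per genotype from the authors' deposited table, with a line joining the values of a gene. LTI30 and RD29B are higher in fen1 than in TWT, RD29A and COR15B are lower, and the lines of RD29A and COR15B nearly coincide.

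RD29A and RD29B lie next to each other on the same strand, RD29B first, with 1319 bp between them, and they moved in opposite directions. RD29A exceeded RD29B by 1.46-fold in fen1 and by 9.97-fold in TWT on the FPKM scale of the authors' deposited table. RD29B thus made up 40.6% of the summed FPKM of the pair in fen1, against 9.12% in TWT. The sum itself was 11.5 FPKM in fen1 and 15.0 FPKM in TWT. The difference between the 2 log2 changes, RD29B minus RD29A, was 2.77, and it has no test of its own, since the table gives no value per library. The 2 genes encode related proteins, and reads that match both could have been split in ways the sources used here do not state.

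Neighbouring called genes mostly moved together. Of 74 pairs of listed genes that are next to each other in the annotated order, 61 had the same direction and 13 opposite directions (17.6%). Among those 13 the RD29 pair had the second largest difference in log2 change, after the seed storage gene CRA1, which rose, and its neighbour FLA13 (log2 −0.98 in the authors' deposited table). The median difference over the 13 pairs was 1.90. Both genes carried a TWT H3K27me3 peak in 27 of the 74 pairs, of which 4 were opposite, the RD29 pair among them. Since 61.4% of listed genes were higher in fen1, many pairs would share a direction in any case. How many was not computed. Some of the pairs are members of the same gene family, and some genes belong to more than a single pair, so the pairs are not independent.

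**Figure D2:**
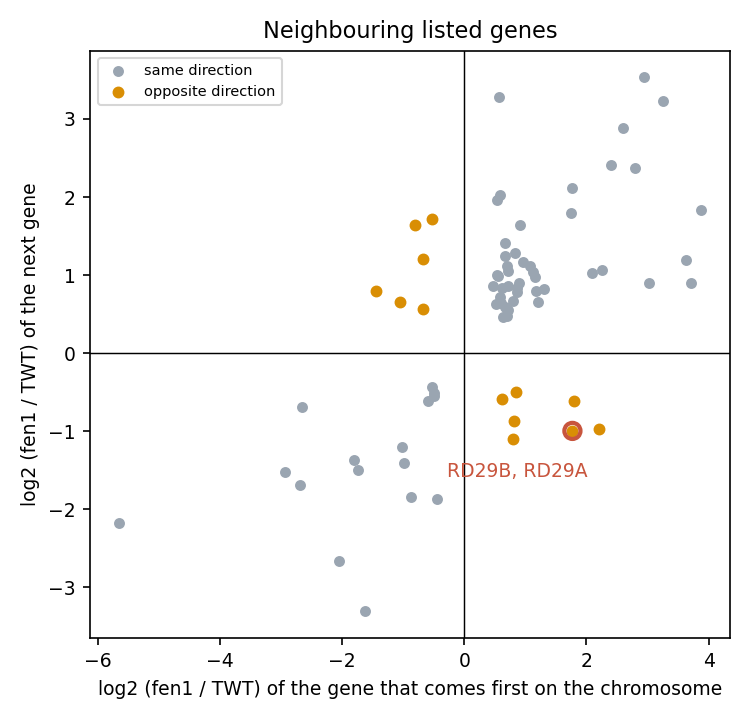
Log2 change (fen1 over TWT) of 74 pairs of neighbouring listed genes from the authors' deposited table, the gene that comes first on the chromosome on the x axis and the next gene on the y axis. The 61 grey points moved in the same direction, the 13 orange points in opposite directions, and the ringed point is RD29B (1.77) with RD29A (−0.998).

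The TWT peaks show the chromatin in which these genes lay. H3K27me3 is the mark of Polycomb silencing, H3K4me3 marks the starts of active genes and H3K9me2 marks silent heterochromatin. A gene was taken to carry a mark where a peak overlapped it by at least 1 bp. RD29A, RD29B and LTI30 carried H3K27me3, which 37% of the listed genes did. LTI30 alone of the 4 carried H3K4me3, which 53.8% of listed genes had. None of the 4 carried H3K9me2, which 2.78% of listed genes had, and COR15B carried no mark, as did 17% of listed genes.

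H3K27me3 sat differently on the 2 RD29 genes. At RD29B a peak of 2287 bp (chr5:21237029-21239315) began 27 bp before the gene and covered 91.4% of it, close to the median of 89.5% over the 412 listed genes with this mark. At RD29A a peak of 985 bp (chr5:21240028-21241012) began 821 bp before the gene and reached 163 bp past its start, so that 5.93% of the gene was covered. Among those 412 listed genes only 2 had a smaller share covered. The 2 peaks were 712 bp apart, and the one at RD29A had the higher score, 162.61, against 104.04 at RD29B. These scores are the authors' own values from the peak caller. They put the RD29A peak at the 60.1 percentile of the H3K27me3 list and the RD29B peak at the 42.0 percentile.

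The RD29A peak lies mostly over the promoter. C24 lines that carry a luciferase reporter driven by the RD29A promoter are in use in screens for silencing factors, and whether TWT is such a line is not given in the labels. Reads from an added copy of the promoter would count towards this peak, and their part in it was not tested.

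No H3K4me3 peak touched either RD29 gene. The nearest one to RD29B (chr5:21235767-21236827) ended 229 bp before its start and was weak, with a score of 100.46, at the 4.26 percentile of its list. For RD29A the nearest H3K4me3 peak lay 1599 bp past its end. An H3K9me2 peak of low score (70.78) ended 1562 bp before RD29B. Other H3K27me3 peaks flanked the pair, one ending 968 bp before RD29B and one starting 4135 bp after RD29A.

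LTI30 carried both marks over nearly its whole length. The H3K27me3 peak (chr3:18940624-18941550, score 95.94) covered 99.5% of the gene and the H3K4me3 peak (chr3:18939558-18941488, score 398.4) 91.5%. Both scores were below the medians of their lists, 125.14 for H3K27me3 and 1202 for H3K4me3. The H3K4me3 peak began 1219 bp before the gene, on the side of another annotated gene, PLP3a. Whole seedlings mix cell types, so the 2 marks may sit in the same or in different cells, which cannot be told apart here.

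At COR15B the nearest H3K27me3 peak (chr2:17710580-17712257, score 139.3) lay 635 bp before its start, on the side of COR15A. A broader one of 4250 bp had its near edge 3115 bp before the start. The nearest H3K4me3 peak lay 3364 bp past the end of the gene, and the nearest H3K9me2 peak was 208649 bp away.

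**Figure D3:**
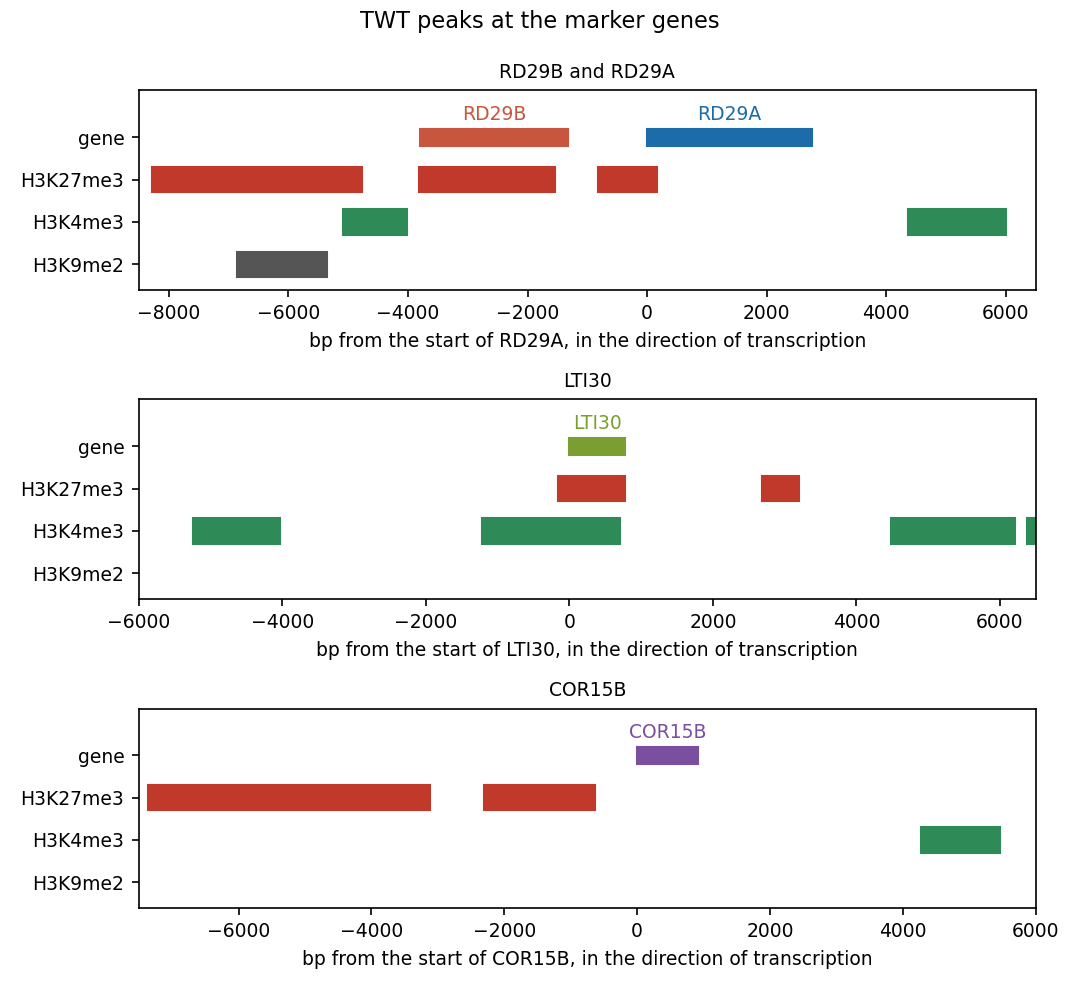
TWT peaks of H3K27me3 (red), H3K4me3 (green) and H3K9me2 (grey) around RD29B and RD29A, LTI30 and COR15B, with distance in bp from the start of the named gene in its direction of transcription on the x axis. Bars are peaks and gene spans drawn to scale, only the 4 marker genes are drawn, and peaks are trimmed at the panel edges; H3K27me3 covers RD29B along its length but only the start of RD29A.

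The levels of the markers were set beside those of listed genes with the same marks. RD29A and RD29B belong to the 299 listed genes with H3K27me3 alone, whose median was 7.88 FPKM in fen1 and 5.00 FPKM in TWT, by the authors' deposited table. In TWT, RD29A was above 74.2% of these genes and RD29B above 20.1%, while in fen1 both lay below the median. LTI30 was above 67.0% of the 88 listed genes with both H3K27me3 and H3K4me3 in TWT. COR15B was above 72.5% of the 189 listed genes without a peak in TWT, but in fen1 it lay below their median of 11.5 FPKM. Of those 189 genes 78.3% were higher in fen1, and COR15B was among the lower ones. Of the 299 genes with H3K27me3 alone, 66.2% were higher in fen1, RD29B among them and RD29A not. Over all listed genes the TWT median was 20.7 FPKM for those lower in fen1 and 6.56 FPKM for those higher. A TWT rank among listed genes is therefore tied to the direction of change and is no separate result.

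The wider pathway was read from 3 lists of 80 genes in all, 15 regulators of the cold response, 34 effectors (the 4 markers included) and 31 genes of ABA signalling. Without the 4 markers, 7 of the other 76 genes were higher in fen1 (9.21%), 1 was lower (1.32%) and 68 were not listed. The shares over all tested genes were 3.4% and 2.14%. The lists were chosen with earlier results of these data known, so this comparison is a description and no independent support. Of the 30 effectors besides the markers, 4 were higher in fen1 (13.3%), 0 were lower and 26 were not listed. Among the listed effectors only RD29A and COR15B fell. Since 61.4% of all listed genes were higher in fen1, nothing is read from the shared direction of the other listed effectors. A gene outside the table may be unchanged or too low to be tested.

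LEA4-5, a late embryogenesis abundant (LEA) protein gene, had the largest rise, to 4.98 FPKM in fen1, against 1.17 FPKM in TWT by the authors' deposited table (a log2 of 2.09, q = 0.00173). LEA7, of the same broad protein class, stood at 9.59 FPKM in fen1 and 4.43 FPKM in TWT by the authors' deposited table (a log2 of 1.12, q = 0.00173). GolS2, a galactinol synthase that starts the making of raffinose sugars in drought, stood at 4.17 FPKM in fen1 and 2.29 FPKM in TWT by the authors' deposited table (a log2 of 0.87, q = 0.0160). The dehydrin gene ERD14 was by far the most abundant, at 620 FPKM in fen1 and 445 FPKM in TWT by the authors' deposited table (a log2 of 0.48, q = 0.0139). The effectors that were not listed include COR15A, COR47, ERD10, KIN1, KIN2 and RAB18.

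Of the regulators, ICE1, which activates CBF genes, stood at 54.7 FPKM in fen1 and 36.8 FPKM in TWT by the authors' deposited table (a log2 of 0.57, q = 0.00173). ZAT12, a zinc finger gene induced by many stresses, stood at 9.78 FPKM in fen1 and 4.58 FPKM in TWT by the authors' deposited table (a log2 of 1.09, q = 0.00173). RAV1, an AP2 and B3 domain factor, fell to 18.6 FPKM in fen1, against 28.6 FPKM in TWT by the authors' deposited table (a log2 of −0.62, q = 0.00173). None of CBF1, CBF2, CBF3, DREB2A and DREB2B was listed. In ABA signalling HAI1, a PP2C phosphatase gene that ABA induces, was the only one of 31 listed, at 6.01 FPKM in fen1 and 3.06 FPKM in TWT by the authors' deposited table (a log2 of 0.98, q = 0.00173). No receptor, SnRK2 kinase or ABF gene of that list was in the table. The list thus had 3.23% of its genes called higher, near the 3.4% of all tested genes, and nothing is read from that count.

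The 8 further listed genes differed in their marks. H3K4me3 alone was on 5 of them (ERD14, ICE1, ZAT12, RAV1 and HAI1), H3K27me3 alone on 2 (GolS2 and LEA7), and LEA4-5 had no peak.

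**Figure D4:**
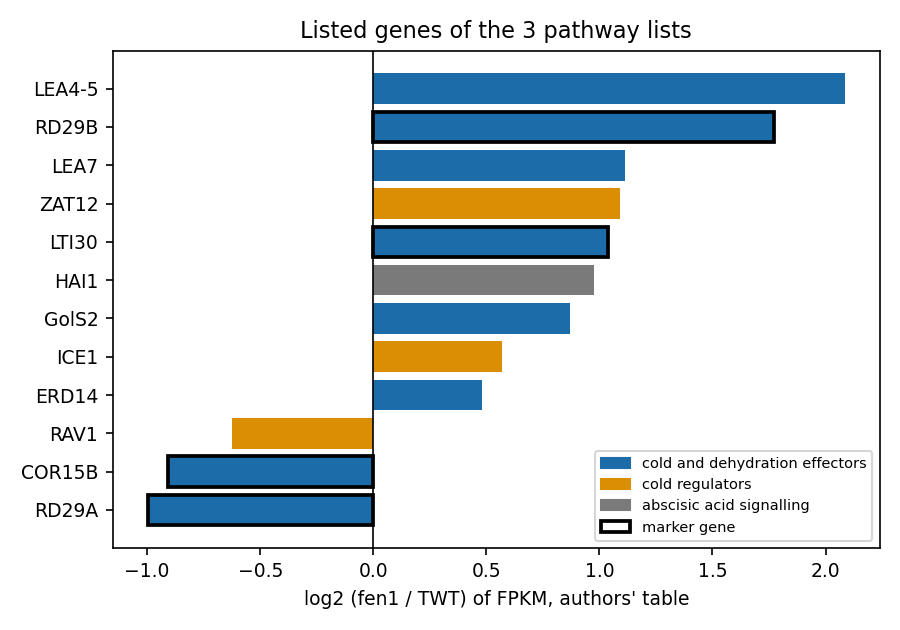
Log2 change (fen1 over TWT, no pseudocount) from the authors' deposited table for the 12 listed genes of the 3 pathway lists, coloured by list, with the 4 marker genes outlined in black. LEA4-5 (2.09) and RD29B (1.77) have the longest bars to the right, and RD29A, COR15B and RAV1 are the 3 genes below 0.

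Of the 10 annotated genes nearest to each marker, 5 on each side, 1 was listed. Over all tested genes 3.4% were called higher and 2.14% lower, and nothing is read from such small counts. For each RD29 gene the listed neighbour was the other RD29 gene. Near LTI30 only BCS1, 5 places away, was listed, at 9.28 FPKM in fen1 and 5.79 FPKM in TWT by the authors' deposited table (a log2 of 0.68). XERO1, a related dehydrin gene beside LTI30, was not listed. Near COR15B only the non-coding RNA gene AT2G42485, 5 places away, was listed, at 14.7 FPKM in fen1 and 8.21 FPKM in TWT by the authors' deposited table (a log2 of 0.84, q = 0.0441), the opposite direction to COR15B.

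Likeness between listed genes was measured as the distance between their log2(FPKM + 1) values over the 2 genotypes, which rests on only 2 values a gene. COR15B was the nearest of all listed genes to RD29A (distance 0.06), followed by MYBL2 (0.07). The nearest to COR15B were AT1G49200 (0.04) and CP1 (0.05). AT1G68200 (0.07) and PMZ (0.09), both of zinc finger families in the deposited descriptions, were nearest to RD29B. The peroxidase gene AT5G17820 (0.03) and the oxidoreductase gene AT1G60730 (0.13) were nearest to LTI30.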

How the data were processed

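Titles gave each library its genotype and assay. Per the submitters' processing notes, the tools were TopHat2 2.1.1, Cuffdiff 2.1.1, SAMtools and Bowtie 0.12.9, on TAIR10, a genome of another ecotype than C24; their roles are not stated. The authors' deposited table has 1 FPKM value per genotype (its header names no unit), log2 fold changes without a pseudocount, and p-values that reach no lower than 5e-05. Each deposited peak list gives a score per peak; the peak names point to MACS, with no settings stated.

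Whether the RNA libraries came from separate cultures is not stated, so the p-values may reflect technical spread. No test was added, since limma needs values per library. Peaks, with 1-based starts, were joined to the table's gene spans with pandas 2.3.3 and NumPy 2.4.6, and the join was checked on simulated intervals. Symbols and gene order came from RefSeq TAIR10.1 (1113 of 1114 identifiers matched). All 80 list entries were kept, 1 of them without a symbol there.

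The members and lists were chosen with earlier results of these data known. Named were the 4 markers, FEN1, called genes of the lists, listed genes within 5 places of a marker and the 2 nearest in level; CRA1, FLA13 and the genes of the closing section were named after their values were seen. Planned work on promoter motifs and proteins was not done here. Alternatives covered pseudocounts, thresholds, peak overlap, peak score and gene order.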

Additional observations from a re-analysis of the deposited data

How the results depend on the processing

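A pseudocount of 1 or 0.1 can change the size of a log2 change but not its direction, so it does not check the direction of the markers. All 4 calls held at a q under 0.01. With a pseudocount of 1 the log2 change of RD29B was 1.26 and that of RD29A −0.90, and RD29B minus RD29A was 2.16, or 2.69 with 0.1. After Bonferroni adjustment over 20132 tests each marker had an adjusted p of 1, because even the p floor of 5e-05 times 20132 exceeds 1, so no listed gene could pass. With the gene extended by 1000 bp on each side, RD29B had 2 marks and COR15B 1. With only peaks at or above the median score of their list, RD29B and LTI30 had 0 marks. An overlap of at least 150 bp changed no count, although RD29A overlapped its peak by only 164 bp. At a q under 0.01, 7 genes of the pathway lists, markers included, were higher instead of 9, with GolS2 and ERD14 dropping out, and 3 were lower. At a change of at least 2-fold, 5 genes of the pathway lists were higher and 0 lower, RD29A falling just short. Opposite neighbours numbered 6 of 49 pairs on the same strand, 8 of 42 at a q under 0.01, and 16 of 95 in the order of protein-coding genes only, an alternative chosen after seeing the data. No paired analysis was possible because the table gives 1 value per genotype, and for the same reason no library could be left out. Depth is unknown, so the precision of each level is unknown too.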

Other observations

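Listed genes whose descriptions name LEA proteins, LEA-related proteins or dehydrins, LTI30 among them, were mostly higher in fen1. This count was made after the values were seen and has no test. A deposited description naming a LEA protein or a dehydrin was found for 21 listed genes, of which 20 were higher and 1 lower, so 95.2% were higher, against 61.4% of all listed genes. These descriptions also cover related families, such as the hydroxyproline-rich glycoproteins, among them YLS9 with 4.64 FPKM in fen1 and 0.94 FPKM in TWT by the authors' deposited table. The median log2 change of those above 0 in both genotypes was 1.15 in the authors' deposited table, and 12 of the 21 (57.1%) carried H3K27me3 in TWT, against 37% of all listed genes. LEA18 stood at 13.0 FPKM in fen1 and 3.78 FPKM in TWT by the authors' deposited table (a log2 of 1.78). AT3G02480 stood at 48.9 FPKM in fen1 and 27.6 FPKM in TWT by the authors' deposited table (a log2 of 0.82). M10 had 0.96 FPKM in fen1 by the authors' deposited table, against a listed 0 in TWT. SAG21 was the 1 that fell, to 382 FPKM in fen1, against 599 FPKM in TWT by the authors' deposited table (a log2 of −0.65). COR15B is not described as a LEA protein in the table and is not among the 21, and neither RD29 gene is.

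Counts of descriptions that name a response were also made after the values were seen and have no test. A gene can be in several of them, so they are not separate results, and 61.4% of all listed genes were higher. Descriptions naming a response to ABA were found for 16 listed genes, of which 14 were higher and 2 lower (87.5% higher). A response to water deprivation was named for 14, of which 10 were higher and 4 lower (71.4% higher), and one to salt stress for 20, of which 15 were higher and 5 lower (75% higher). Those naming a response to cold were found for 9, of which 6 were higher and 3 lower (66.7% higher, against 61.4% of all listed genes). The markers are part of these counts, 2 of them for cold and 1 each for ABA, water deprivation and salt stress. The descriptions of 28 listed genes, RD29A among them, give only a number of processes, so such counts miss genes.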
